A study of Mus musculus and Acomys cahirinus with 25 samples.

Results

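The genes described here are 10 markers and regulators of blood vessels: the growth factor Vegfa, the angiopoietins Angpt1 and Angpt2, the receptors Kdr, Flt1, Tek and Tie1, and the endothelial surface genes Pecam1, Cdh5 and Emcn. They were chosen by name and are 10 of the 24500 gene symbols in the count files. All 10 have a row in each of the 25 tables, with 0 counts in some libraries. The level of a gene is given as CPM, its counts scaled to the library's total over all gene rows.

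The libraries are bulk RNA-seq of dorsal skin wounds whose epidermis and dermis had been separated, in laboratory mice and in the African spiny mouse, Acomys cahirinus, a species that forms new hair follicles across the wound bed. The laboratory mice were mainly C57BL/6J, stated to be 4 weeks old, and all their tissue was taken on post-wound day (PWD) 14. For the transgenic work, Twist1+/+ mice served as controls of K14-Cre-Twist1 mice, and the labels do not say which wild-type libraries came from which mice. They gave wild-type wound center epidermis (n = 2), wild-type wound margin epidermis (n = 2), wild-type wound center dermis (n = 5), wild-type wound margin dermis (n = 2) and wound center dermis of K14-Cre-Twist1 mice (n = 2). In the K14-Cre-Twist1 mice the keratin 14 promoter drives the recombinase Cre, so that Twist1 is deleted in keratinocytes of the epidermis and not in the dermis that was sequenced. Following the study's own plots, wild-type wound center dermis replicates 1 and 2 were compared with the margin, and replicates 3 to 5 with the K14-Cre-Twist1 libraries. Replicates were stated to be biologically independent. The spiny mice were 2 months old, carried no transgene, and gave epidermis from unwounded skin, PWD0 (n = 1), and from wounds at PWD14 (n = 2), PWD21 (n = 2) and PWD28 (n = 1), and dermis at PWD0 (n = 2), PWD14 (n = 1), PWD21 (n = 2) and PWD28 (n = 1). These days follow the labels, and the study's own sample list gives slightly different days for the spiny mouse wounds. Spiny mouse reads were aligned to the lab mouse genome, so a gene's level there depends on how far its sequence has diverged, and no test was made between the species. Every lab mouse library of epidermis was paired-end and every one of dermis single-end, so the read type and the layer cannot be told apart in the lab mouse.

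Blood vessels are lined by endothelial cells, which are joined by VE-cadherin (Cdh5) and CD31 (Pecam1). VEGF-A, encoded by Vegfa, is released by many cells, among them keratinocytes of healing skin, and acts on endothelial cells through VEGFR2 (Kdr), the main signalling receptor, while VEGFR1 (Flt1) binds the ligand tightly and limits it. Angiopoietin 1, made by cells around the vessel, activates the receptor TIE2 (Tek) and steadies the vessel wall, and angiopoietin 2, made by the endothelium itself, can oppose it; Tie1 encodes a co-receptor of TIE2. The epidermis holds no vessels.

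Promoters are shown for Tie1, Kdr and Emcn, 3 of the genes whose center-to-margin difference was called as different between the layers, and for Vegfa, whose level ran the other way between the layers. RefSeq promoters were at hand for Emcn, Flt1, Kdr, Tek, Tie1 and Vegfa, which is 6 of the 10 genes, and were not at hand for Angpt1, Angpt2, Cdh5 and Pecam1. The genes span, over all their RefSeq transcripts in build GRCm38.p6, chr4:118471191-118489849 for Tie1, chr5:75932827-75979072 for Kdr, chr3:137341062-137431069 for Emcn and chr17:46016993-46032377 for Vegfa. Each sequence is the 250 bases before 1 RefSeq transcript start of the gene, on the gene's own strand and in the same build. Other transcripts start elsewhere, so that the Kdr window lies within the span of the gene and the Emcn window runs into it. Capitals mark 2 contexts of the core bound by ETS factors, CCGGAA and AGGAAG, and the hypoxia response core ACGTG, on either strand. The Tie1 window is chr4:118489850-118490099, minus strand, the Kdr window chr5:75978456-75978705, minus strand, the Emcn window chr3:137340828-137341077, plus strand, and the Vegfa window chr17:46032378-46032627, minus strand.
Tie1: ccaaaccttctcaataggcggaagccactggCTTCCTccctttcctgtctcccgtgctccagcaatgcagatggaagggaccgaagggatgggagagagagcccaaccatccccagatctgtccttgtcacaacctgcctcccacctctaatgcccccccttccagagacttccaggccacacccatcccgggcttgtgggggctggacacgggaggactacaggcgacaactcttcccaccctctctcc
Kdr: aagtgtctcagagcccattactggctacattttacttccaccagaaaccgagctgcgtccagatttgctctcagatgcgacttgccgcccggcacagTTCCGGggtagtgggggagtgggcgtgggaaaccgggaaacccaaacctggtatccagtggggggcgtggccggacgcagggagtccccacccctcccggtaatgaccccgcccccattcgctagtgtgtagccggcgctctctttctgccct
Emcn: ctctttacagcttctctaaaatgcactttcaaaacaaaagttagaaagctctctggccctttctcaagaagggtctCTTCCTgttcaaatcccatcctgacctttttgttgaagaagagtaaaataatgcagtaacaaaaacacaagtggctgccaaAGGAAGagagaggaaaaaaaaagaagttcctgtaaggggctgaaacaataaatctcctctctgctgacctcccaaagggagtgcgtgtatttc
Vegfa: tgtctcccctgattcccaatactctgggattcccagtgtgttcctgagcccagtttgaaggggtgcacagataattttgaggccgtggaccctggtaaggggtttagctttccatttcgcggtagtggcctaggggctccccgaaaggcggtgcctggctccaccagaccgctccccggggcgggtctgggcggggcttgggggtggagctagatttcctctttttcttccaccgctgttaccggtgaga
An ETS context was present in the windows of 4 of the 6 genes, Emcn, Flt1, Kdr and Tie1, and in 38.2% of all 32851 promoter windows of that length. CCGGAA was in the Kdr window only, 153 bases before the start, and in 12.0% of all windows. AGGAAG was in the Emcn, Flt1 and Tie1 windows and in 29.5% of all. ACGTG was in none of the 4 windows printed and in 16.6% of all windows. A second RefSeq start of Vegfa has the window chr17:46025164-46025413, minus strand, which lies within the span of the gene. In that window ACGTG was 211 bases before the start. These matches are descriptions of letters and were not tested as binding sites.

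Depth and tissue identity set the frame for what follows. Reads assigned to genes ran from 19413261 to 86532134 per lab mouse library and from 5669760 to 34751956 per spiny mouse library, so that 3 counts, taken as the floor of detection, corresponded to 0.0347 to 0.154 CPM in the lab mouse and to 0.0863 to 0.529 CPM in the spiny mouse; such floors cover counting error only. The layers carried their own markers: 12 keratinocyte genes summed to between 156577 and 216079 CPM in lab mouse epidermis, and 12 fibroblast genes to between 73388 and 145625 CPM in lab mouse dermis. One dermis library stood apart. K14-Cre-Twist1 replicate 2 held 35864 CPM of keratinocyte markers, against 13.4 to 4799 CPM in the other lab mouse dermis libraries, and the K14-Cre-Twist1 differences are therefore also given without it. Twist1 itself was detected in both K14-Cre-Twist1 dermis libraries, at 73.4 and 44.0 CPM, beside 36.3 to 105 CPM in wild-type replicates 3 to 5, which does not check the deletion because it was made in another layer.

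The question put to the layers was where these genes are expressed in the wound. In lab mouse dermis at the wound center the endothelial genes and their receptors were far above the epidermis, and Vegfa was the one member that was higher in the epidermis. Cdh5 measured 258 and 214 CPM in wound center dermis replicates 1 and 2, and 9.04 and 6.19 CPM in the epidermis over it. At the wound margin it measured 182 and 163 CPM in the dermis and 2.44 and 0.185 CPM in the epidermis. No dermis library overlapped an epidermis library. In bulk RNA a lower level can come from fewer cells of a type or from less RNA per cell, which cannot be told apart here.

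All 10 members passed the test at a false discovery rate (FDR) under 0.05 between wound center dermis and wound center epidermis, by the quasi-likelihood test of edgeR adjusted over all genes after Benjamini and Hochberg, 9 of them higher in dermis. This contrast called 56.1% of all genes tested, and 26.8% as higher in dermis. The log2 differences of the 3 surface genes were 4.67 ± 0.29 (SE) for Pecam1, 4.17 ± 0.27 for Cdh5 and 3.10 ± 0.26 for Emcn, the sialomucin of capillaries and veins. Among the receptors the difference was 5.18 ± 0.67 for Tek, 3.40 ± 0.30 for Kdr, 3.11 ± 0.23 for Tie1 and 2.53 ± 0.66 for Flt1. Flt1, the receptor that limits VEGF-A, therefore had the smallest of the 9 and also the highest adjusted p, 0.0243. The angiopoietins differed by 5.10 ± 0.84 for Angpt1 and 3.77 ± 0.41 for Angpt2.

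At the wound margin the same 9 members were higher in dermis. All 10 members again passed the test, where 47.7% of genes were called and 26.8% as higher in dermis. The log2 difference was 6.48 ± 0.51 for Pecam1, 6.52 ± 0.80 for Cdh5 and 6.63 ± 0.58 for Emcn. Angpt1, Angpt2 and Tie1 had at most 2 counts in either margin epidermis library. Their dermis means of 28.4, 63.4 and 50.7 CPM were at least 334-fold, at least 746-fold and at least 597-fold higher than 3 counts in the shallower of those libraries. These members entered the test through the dermis libraries alone, and with at least 10 counts required in every library 5 of the 10 were tested and called.

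Vegfa, the ligand of Kdr and Flt1, showed the reverse. Its level was 119 and 127 CPM in wound center epidermis, 63.9 and 42.6 CPM in margin epidermis, 25.4 and 23.6 CPM in wound center dermis replicates 1 and 2, and 28.1 and 29.9 CPM in margin dermis. All 4 epidermis libraries were above all 4 of these dermis libraries. The mean CPM was 5.01-fold higher in the epidermis at the wound center and 1.84-fold higher at the margin, and the fitted log2 differences, dermis against epidermis, were -3.11 ± 0.17 (adjusted p = 0.000216, edgeR) and -1.73 ± 0.37 (adjusted p = 0.00339, edgeR). The fit scales each library by TMM, which assumes that most genes do not differ; with library size as the only scale the median of all genes moved from -0.05 to 0.73 at the center and from 0.16 to 0.98 at the margin, and the Vegfa difference at the margin was -0.87 with an adjusted p of 0.0638.

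**Figure D1:**
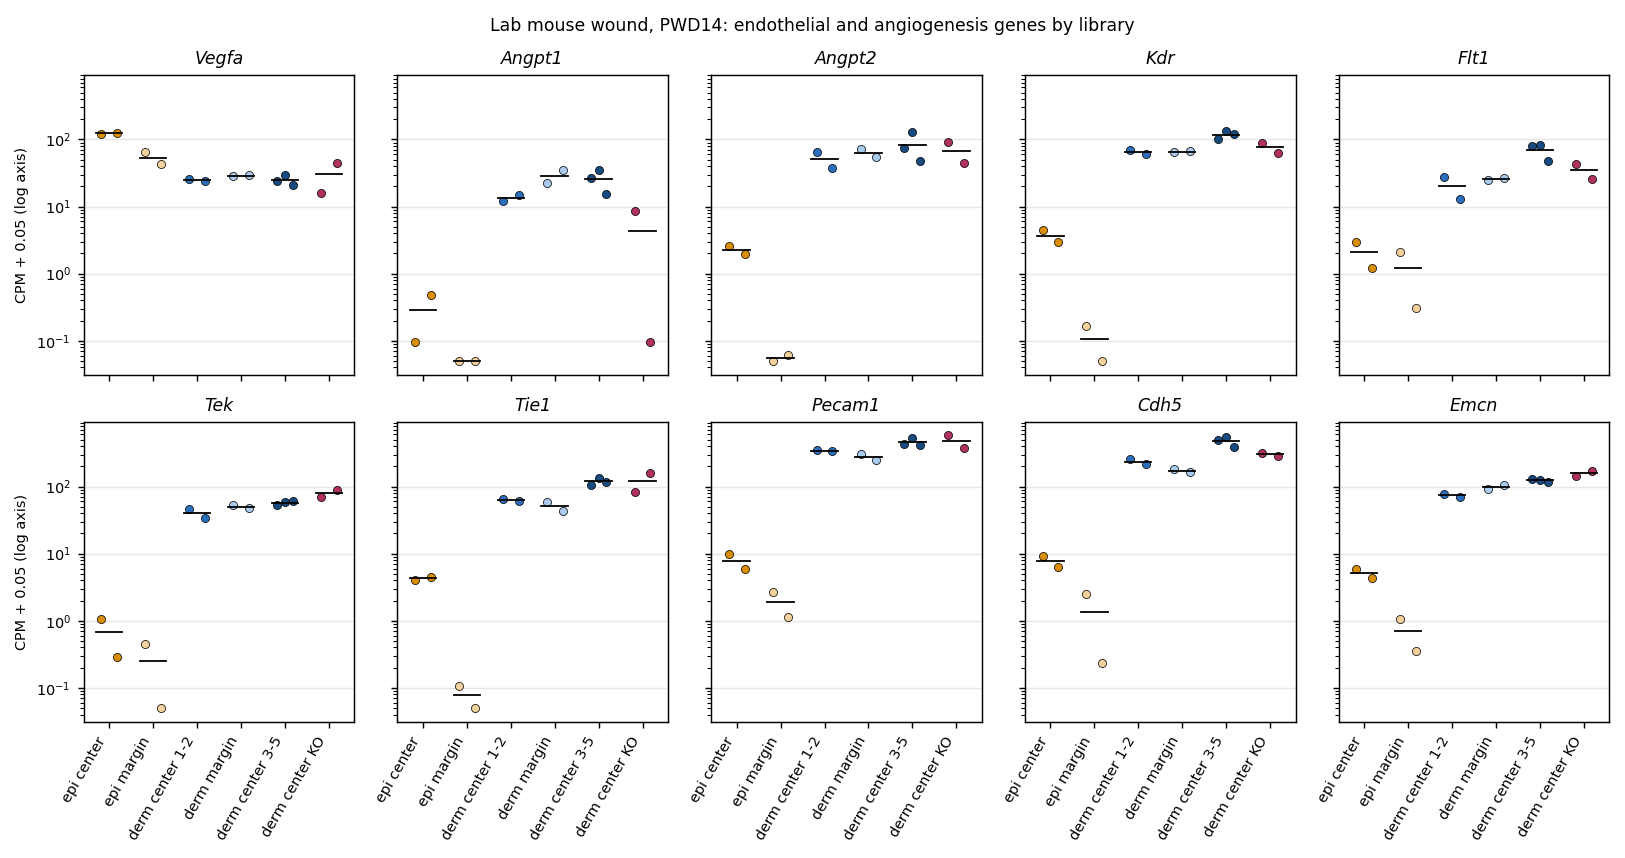
Level of each of the 10 genes in every lab mouse library, as CPM + 0.05 on a log axis; points are libraries, horizontal bars are group means, and wild-type wound center dermis is drawn as replicates 1 and 2 and replicates 3 to 5. Vegfa has its highest values in epidermis (42.6 to 127 CPM, against 16.1 to 43.9 CPM in dermis, so that the ranges overlap). The other 9 genes are highest in dermis, with Tie1 and Angpt2 at 0 to 2 counts in the margin epidermis.

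Most genes of the wider vascular lists were higher in dermis. Of 28 further endothelial identity genes, 27 passed the test at the wound center, where 56.1% of all genes were called and 26.8% as higher in dermis. Of the 27, 26 were higher in dermis and 1, Sox7, was lower. At the margin, where 47.7% of all genes were called and 26.8% as higher in dermis, 28 passed, 27 higher and, again, Sox7 lower. The median log2 difference of the list was 4.16 at the center and 7.35 at the margin, beside -0.05 and 0.16 for all genes tested. Of the 28, 15 were above the floor of detection in each margin epidermis library. The others could pass the test through the dermis libraries alone, so the margin median is no bound. Cd34, a surface protein of capillary endothelium and of stromal cells, stood at 261 CPM in wound center dermis and 8.70 CPM in the epidermis. Nrp1, a co-receptor for VEGF, stood at 238 against 7.71 CPM. At the center 9 of 12 genes of sprouting vessels were called as higher in dermis, and Adm and Jag1 as lower. Of 10 pericyte and mural genes 8 were called as higher there, and Ndufa4l2 and Notch3 as lower. Of 10 hypoxia-induced genes, 9 were found, and 8 of these were lower in dermis at the center with none higher, beside 56.1% of all genes called in either direction. Egln3, an oxygen sensor whose transcript rises in hypoxia, was at 3.73 CPM in wound center dermis and 656 CPM in the epidermis, and Slc2a1, the glucose transporter GLUT1, at 31.0 and 378 CPM. At the margin 5 of the 9 were lower in dermis, Bnip3, Egln1, Egln3, Kdm3a and Slc2a1, and none higher, beside 47.7% of all genes called.

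Spiny mouse wounds at PWD21 showed the same layering for every member but Flt1. Of the 10 members, 9 passed the test between dermis and epidermis, 8 higher in dermis and Vegfa lower, in a contrast that called 62.9% of all genes and 33.5% as higher in dermis. Cdh5 measured 84.9 and 91.2 CPM in dermis and 0.887 and 0.343 CPM in epidermis. Kdr measured 81.4 and 74.7 CPM in dermis and 0.473 and 0.228 CPM in epidermis. The log2 differences were 6.90 ± 0.41 for Cdh5 and 7.53 ± 0.35 for Kdr. In the epidermis libraries Cdh5 had 6 to 30 counts, Kdr 4 to 16, Tek 0 to 7, Emcn 0 to 13 and Angpt2 7 to 8. These members entered the test through the dermis libraries, so their fitted differences are no bounds. With at least 10 counts required in every library, 3 of the 9 stayed called. Angpt1 had 1 count in each epidermis library and a dermis mean of 27.4 CPM, at least 160-fold higher than 3 counts in the shallower library. Vegfa measured 37.7 and 53.4 CPM in dermis and 104 and 60.2 CPM in epidermis, a log2 difference of -0.99 ± 0.33 (adjusted p = 0.0338, edgeR). That adjusted p was 0.305 without PWD21 epidermis replicate 1, 0.0934 without PWD21 dermis replicate 1 and 0.0616 with all spiny mouse libraries in one fit.

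Flt1 stood out in spiny mouse epidermis. It measured 9.34 and 6.11 CPM at PWD21, on 316 and 107 counts, beside 9.49 and 13.3 CPM in the dermis, and the log2 difference of 0.42 ± 0.34 did not pass the test (adjusted p = 0.309, edgeR). In PWD21 epidermis replicate 1 there were 10.5 counts of Flt1 for each count of Cdh5. In the 2 PWD21 dermis libraries there were 0.112 and 0.145. Tie1 was also present there, at 1.98 and 1.31 CPM. Among the endothelial surface genes, Cdh5 had 30 and 6 counts, Emcn 13 and 0 and Pecam1 62 and 22 in the 2 PWD21 epidermis libraries. Of 28 further endothelial identity genes, 27 were called between these layers, where 62.9% of all genes were called. Of the 27, 25 were higher in dermis and 2, Nos3 and Sox7, were lower.

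Between the regions of the lab mouse epidermis the comparison asks how the wound center, where new follicles form in this species, differs from the margin. In CPM, 8 of the 10 members were higher in both center libraries than in both margin libraries, and none was lower in both. Non-overlapping groups were seen for 61.3% of all genes that averaged 1 CPM or more. Tie1 measured 3.98 and 4.504 CPM at the center and 0.0567 and 0 CPM at the margin, or 270 and 249 counts against 2 and 0. Kdr measured 4.36 and 2.91 CPM at the center and 0.113 and 0 CPM at the margin, or 296 and 161 counts against 4 and 0. Angpt2 had 170 and 104 counts at the center and 0 and 1 at the margin. All 3 genes were thus at or near the detection floor in margin epidermis and clearly counted at the center.

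The fitted test did not call any of them. Of the 10 members 9 were tested, none had an adjusted p under 0.05, and 7 had an unadjusted p under 0.05 by edgeR's quasi-likelihood test, where 1.24% of all genes were called and 23.5% had an unadjusted p under 0.05. The log2 difference, center against margin, was 7.76 ± 1.14 for Tie1 (adjusted p = 0.0545), 6.63 ± 1.17 for Kdr (adjusted p = 0.0647) and 3.16 ± 0.67 for Emcn (adjusted p = 0.0874). Tie1, Kdr and Angpt2 entered the test through the center libraries alone, so their fitted differences rest on 0 to 4 counts at the margin and are no bounds. The mean CPM of Tie1 at the center was at least 49.9-fold and that of Angpt2 at least 25.8-fold higher than 3 counts in the shallower margin library. Cdh5 differed by 2.91 ± 0.90 (adjusted p = 0.150) and Pecam1 by 2.15 ± 0.58 (adjusted p = 0.127). The margin pair lay apart, with Cdh5 at 2.44 and 0.185 CPM, and the part of this spread in the absence of calls was not tested. With 1 margin library left out, 9 members were called beside 36.4% of all genes (without replicate 1) or 7 beside 50.9% (without replicate 2), the lone library being assumed to vary like the center pair. DESeq2 called 6 members and 10.7% of all genes, the fit of all lab mouse libraries 6 and 3.01%, and edgeR's likelihood ratio test 5 and 10.8%.

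Vegfa was higher at the center as well, at 119 and 127 CPM against 63.9 and 42.6 CPM. This 2.30-fold difference of means, log2 1.10 ± 0.29, had an adjusted p of 0.124 by edgeR's quasi-likelihood test, and the groups did not overlap. Angpt1 was not tested, with 3 and 24 counts at the center and none at the margin. Flt1 and Tek overlapped between the regions, Flt1 at 2.92 and 1.16 CPM against 2.04 and 0.254 CPM.

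Summed fibroblast and mural markers were also higher in both center libraries. The 12 fibroblast genes summed to 5031 and 4170 CPM in center epidermis and to 1930 and 607 CPM in margin epidermis, with 11 or 12 of 12 above the floor in each library. The 10 pericyte and mural genes summed to 495 and 499 CPM at the center and to 300.3 and 365 CPM at the margin. The mural list holds Ndufa4l2 and Notch3, which were called as higher in epidermis than in dermis at the wound center. Between the regions 1 of the 12 fibroblast genes was called, Twist2, beside 1.24% of all genes. Of the 10 mural genes 1 was called, Pdgfrb. The part of the fibroblast and mural genes in the difference of the endothelial genes was not tested. Of the 28 endothelial identity genes 27 were tested and none was called. An unadjusted p under 0.05 was reached by 19 of them, beside 23.5% of all genes (edgeR). The median log2 difference of the list was 3.57, beside -0.02 for all genes. In each margin library 15 of the 28 had more than 3 counts, so this median is no bound. Egfl7, a secreted endothelial protein, had the lowest adjusted p of that list, 0.0505 (edgeR), at 3.03 against 0.0231 CPM. Its margin mean lay below the CPM of 3 counts in either margin library. Pdgfrb, the PDGF receptor of mural cells and fibroblasts, was called, with a log2 difference of 3.45 ± 0.38 (adjusted p = 0.0367). Among 12 inhibitors and modulators of angiogenesis Serpinf1, which encodes PEDF, rose by 2.81 ± 0.35 and Timp3 fell by 2.37 on the log2 scale.

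In the dermis no member was called between the regions. Pecam1 measured 346 and 341 CPM in wound center replicates 1 and 2 and 301 and 251 CPM at the margin. Cdh5 measured 258 and 214 CPM against 182 and 163 CPM. Angpt1 ran the other way, at 12.1 and 14.9 CPM at the center and 22.0 and 34.8 CPM at the margin. The contrast called 0.85% of all genes, and 2 members had an unadjusted p under 0.05, beside 15.8% of all genes. These were Cdh5, with a log2 difference of 0.54 ± 0.21 (adjusted p = 0.243, edgeR), and Angpt1, with -0.98 ± 0.43 (adjusted p = 0.297, edgeR). DESeq2 called none of the 10 either. Kdr was nearly level, at 70.1 and 61.6 CPM against 65.3 and 66.2 CPM. Groups did not overlap for 7 of the 10, 3 higher and 4 lower at the center, beside 44.6% of all genes.

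One gene of sprouting vessels was called in this contrast, Apln, the peptide ligand of the apelin receptor made by tip cells, at 97.6 CPM at the center and 40.7 CPM at the margin (log2 difference 1.35 ± 0.26, adjusted p = 0.0467, edgeR). It was 1 of 12 sprouting genes. Of the 28 further endothelial identity genes none was called and 6 had an unadjusted p under 0.05. The keratinocyte sum was 636 and 442 CPM in these center libraries and 2357 and 4799 CPM at the margin, and 7 of its 12 genes were called as lower at the center. Whether these keratinocyte reads bear on Vegfa, at 25.4 and 23.6 against 28.1 and 29.9 CPM, was not tested.

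The difference between regions was itself different between the layers for 4 members. With both layers in one model, the center-to-margin difference in epidermis exceeded that in dermis by a log2 of 7.46 ± 1.09 for Tie1, 6.64 ± 1.03 for Kdr, 7.95 ± 1.39 for Angpt2 and 3.58 ± 0.62 for Emcn (adjusted p = 0.00584, 0.00646, 0.0121 and 0.00907, edgeR). This test called 3.48% of all genes, and 3.34% in this direction. In margin epidermis Tie1 had 2 and 0 counts, Kdr 4 and 0 and Angpt2 0 and 1, so these 3 were tested through the other groups alone, and their fitted values are no bounds. With at least 10 counts required in every library 5 members were tested and 1 was called, Emcn, at 3.36 (adjusted p = 0.0247, edgeR). Cdh5, at 2.45 ± 0.84, and Pecam1, at 1.86 ± 0.53, were not called. Of the 28 other endothelial genes 8 were called, all in the same direction, among them Ptprb, the VE-PTP phosphatase of endothelial junctions, at 9.59 ± 1.36. In each margin epidermis library 15 of the 28 had more than 3 counts. The others could be tested through the other groups alone, and such fitted values are no bounds. Angpt2 lost the call without wound center epidermis replicate 1 (adjusted p = 0.0616) or without either dermis margin library (0.0622 and 0.0514), and Emcn lost it without center epidermis replicate 1 (0.0537) or dermis margin replicate 2 (0.0707).

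The K14-Cre-Twist1 comparison asks whether deleting Twist1 in the epidermis is accompanied by changes in the dermis below. Cdh5 measured 317 and 289 CPM in K14-Cre-Twist1 wound center dermis and 498, 552 and 388 CPM in wild-type replicates 3 to 5. Flt1 measured 43.5 and 25.8 CPM against 79.99, 82.4 and 48.2 CPM. Both groups of libraries were apart for these genes, with the K14-Cre-Twist1 values below. Emcn and Tek were above instead, Emcn at 145 and 169 CPM against 129, 127 and 117 CPM and Tek at 70.9 and 87.3 CPM against 52.2, 58.5 and 61.3 CPM.

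No member passed the test, in a contrast that called 0.0565% of all genes. An unadjusted p under 0.05 was reached by 3 members, beside 11.5% of all genes: Cdh5 with a log2 difference of -0.66 ± 0.24 (adjusted p = 0.363, edgeR), Flt1 with -1.01 ± 0.38 (adjusted p = 0.371, edgeR) and Angpt1 with -2.57 ± 0.91 (adjusted p = 0.363, edgeR). DESeq2 called 1, Cdh5, at -0.64 (adjusted p = 0.0369), and 5.56% of all genes. Groups did not overlap for 6 of 10, beside 30.1% of all genes. Angpt1 differed sharply between the K14-Cre-Twist1 libraries, with 183 counts or 8.61 CPM in replicate 1 and 1 count or 0.0461 CPM in replicate 2, against 26.7, 35.6 and 15.5 CPM in wild type.

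The second K14-Cre-Twist1 library decided several of these values. It was the one with 35864 CPM of keratinocyte markers, it had the highest Vegfa of all lab mouse dermis libraries, 43.9 CPM against 16.1 CPM in replicate 1, and its hypoxia-induced genes summed to 885 CPM, against 335 to 501 CPM in the other dermis libraries. Without it no member was called, beside 0.18% of all genes, with adjusted p from 0.794 to 0.932 (edgeR). Vegfa then turned from 0.26 to -0.57 and Tie1 from 0.02 to -0.49 on the log2 scale. The other differences without it were -0.56 for Cdh5, -0.65 for Flt1, -0.35 for Kdr, -1.53 for Angpt1, 0.38 for Pecam1, 0.34 for Tek, 0.25 for Emcn and 0.21 for Angpt2. With it as the lone K14-Cre-Twist1 library, 3 members and 22.5% of all genes were called: Kdr at -0.96, Flt1 at -1.49 and Angpt1 at -9.01, the last a fitted value on 1 count, and the lone library was assumed to vary like the wild type. The 2 sets of wild-type libraries also differed. Between replicates 1 and 2 and replicates 3 to 5, which share their label, Cdh5 was 2.03-fold and Flt1 3.47-fold higher in the second set, 8 of 10 members did not overlap, beside 39.8% of all genes averaging 1 CPM or more, and Vegfa differed 1.01-fold. Whether the sets came from the same kind of wild-type mice is not given in the labels.

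**Figure D2:**
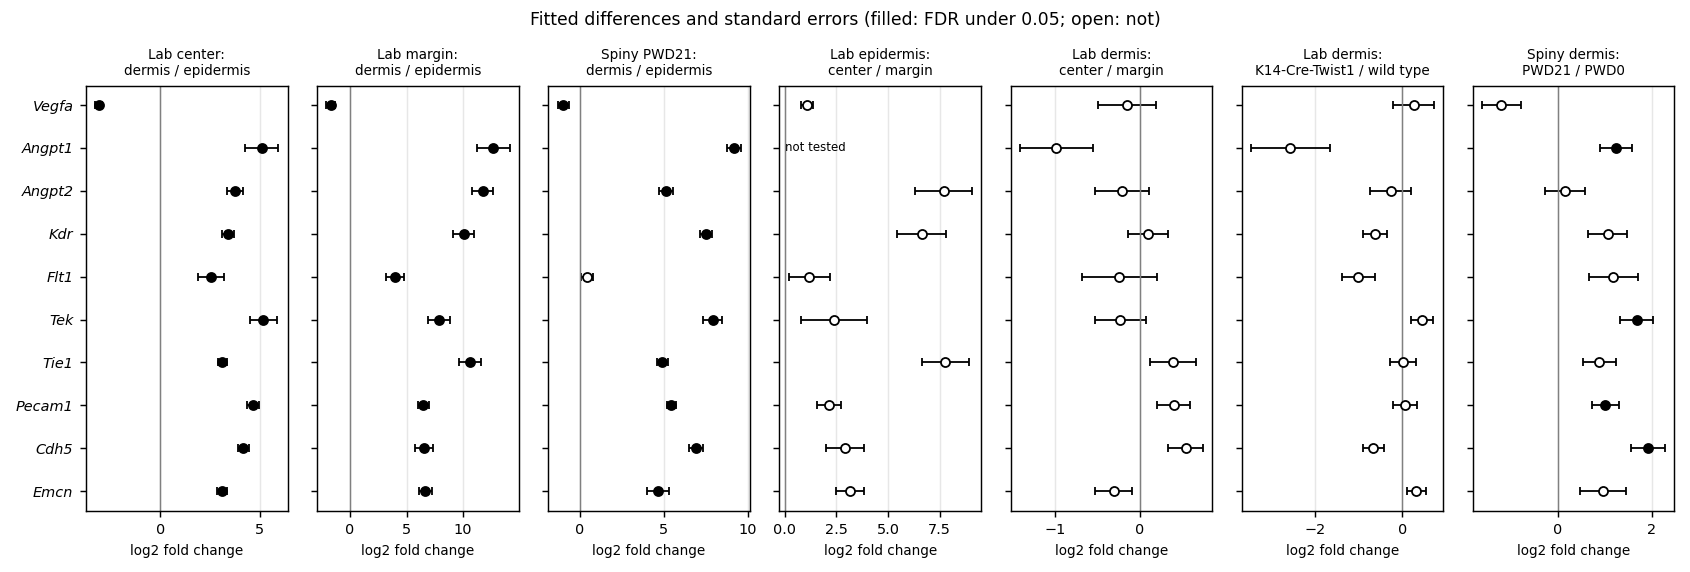
Fitted log2 differences of the 10 genes in 7 comparisons, first group over second, with standard errors from edgeR's quasi-likelihood fit; filled points passed an FDR of 0.05 and open points did not, and each panel has its own axis. The layer contrasts are filled for 9 or 10 genes with Vegfa alone to the left of 0, the lab mouse region and genotype contrasts hold open points only, and spiny mouse dermis has 4 filled points.

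In spiny mouse dermis Cdh5, Tek, Pecam1 and Angpt1 rose between unwounded skin and the PWD21 wound. Cdh5 measured 13.2 and 31.2 CPM at PWD0, 22.3 CPM at PWD14, 84.9 and 91.2 CPM at PWD21 and 65.6 CPM at PWD28. Tek measured 7.94 and 13.4 CPM, then 21.7 CPM, 41.4 and 31.1 CPM, and 20.5 CPM on the same days. Pecam1 measured 27.2 and 44.2 CPM, then 21.6 CPM, 81.2 and 71.7 CPM, and 59.5 CPM. Angpt1 measured 8.29 and 13.7 CPM, then 4.24 CPM, 29.3 and 25.6 CPM, and 9.75 CPM. Both PWD21 libraries were above both PWD0 libraries for each gene. Pecam1 and Angpt1 were below both PWD0 libraries in the 1 library at PWD14. Angpt1 lay within its PWD0 range in the 1 library at PWD28. The 1 library at PWD14 has a 95% Wilson interval of 20.2 to 24.7 CPM for Cdh5 and the 1 library at PWD28 an interval of 60.9 to 70.8 CPM, which cover counting error only.

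Of the 10 members, 4 passed the test between PWD21 and PWD0, all of them higher at PWD21, in a contrast that called 26.2% of all genes and 12.0% as higher. They were Cdh5 with a log2 difference of 1.93 ± 0.36 (adjusted p = 0.00712), Tek with 1.68 ± 0.34 (adjusted p = 0.00980), Angpt1, the ligand of Tek, with 1.24 ± 0.34 (adjusted p = 0.0292) and Pecam1 with 1.01 ± 0.29 (adjusted p = 0.0333), all by edgeR. Kdr, at 18.2 and 54.1 CPM on PWD0 and 81.4 and 74.7 CPM on PWD21, was not called (adjusted p = 0.0871). Groups did not overlap for 9 of the 10 members, 8 higher and Vegfa lower at PWD21, beside 68.0% of all genes. Angpt2 was level, at 5.82 and 13.8 CPM against 12.7 and 10.3 CPM. Spiny mouse libraries are unstranded. The span of Angpt2 overlaps that of Mcph1 on the other strand, and the span of Cdh5 overlaps that of Gm29682. Whether their exons overlap was not examined, and reads from any shared exon could not be told apart by strand.

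The calls in this contrast rested on few libraries. Cdh5 was called with any 1 library left out, the lone library being assumed to vary like the other group. Without PWD21 replicate 1 it was the single member called, beside 9.64% of all genes, and without PWD21 replicate 2 there were 2, beside 9.25%. Without PWD0 replicate 2 there were 7, Tie1, Kdr and Flt1 being added, beside 34.0% of all genes. A test for any difference among the 4 days called 4 members, in which 24.7% of all genes were called: Angpt1 (adjusted p = 0.0171), Cdh5 (0.0203), Tek (0.0318) and Pecam1 (0.0414, all edgeR).

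Vegfa had a fitted difference of the opposite sign in spiny mouse dermis, which did not pass the test. It measured 53.44 and 149 CPM at PWD0, 34.0 CPM at PWD14, 37.7 and 53.35 CPM at PWD21 and 68.3 CPM at PWD28. The groups of PWD0 and PWD21 therefore met at their edge, and the log2 difference of -1.20 ± 0.41 was not called (adjusted p = 0.0639, edgeR). DESeq2 gave -1.22 with an adjusted p of 0.0170. Without PWD0 replicate 2, the library at 149 CPM, the difference was -0.45 (adjusted p = 0.371), and without PWD0 replicate 1 it was -1.66 and passed the test. The keratinocyte markers, which belong to the layer where Vegfa is high, summed to 12228 and 8549 CPM at PWD0 and to 771 and 1368 CPM at PWD21, and 11 of the 12 were called as lower at PWD21. The 6 adipocyte markers summed to 315 and 338 CPM at PWD0 and to 23.7 and 15.4 CPM at PWD21. What these cells contribute to the difference in Vegfa was not tested.

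**Figure D3:**
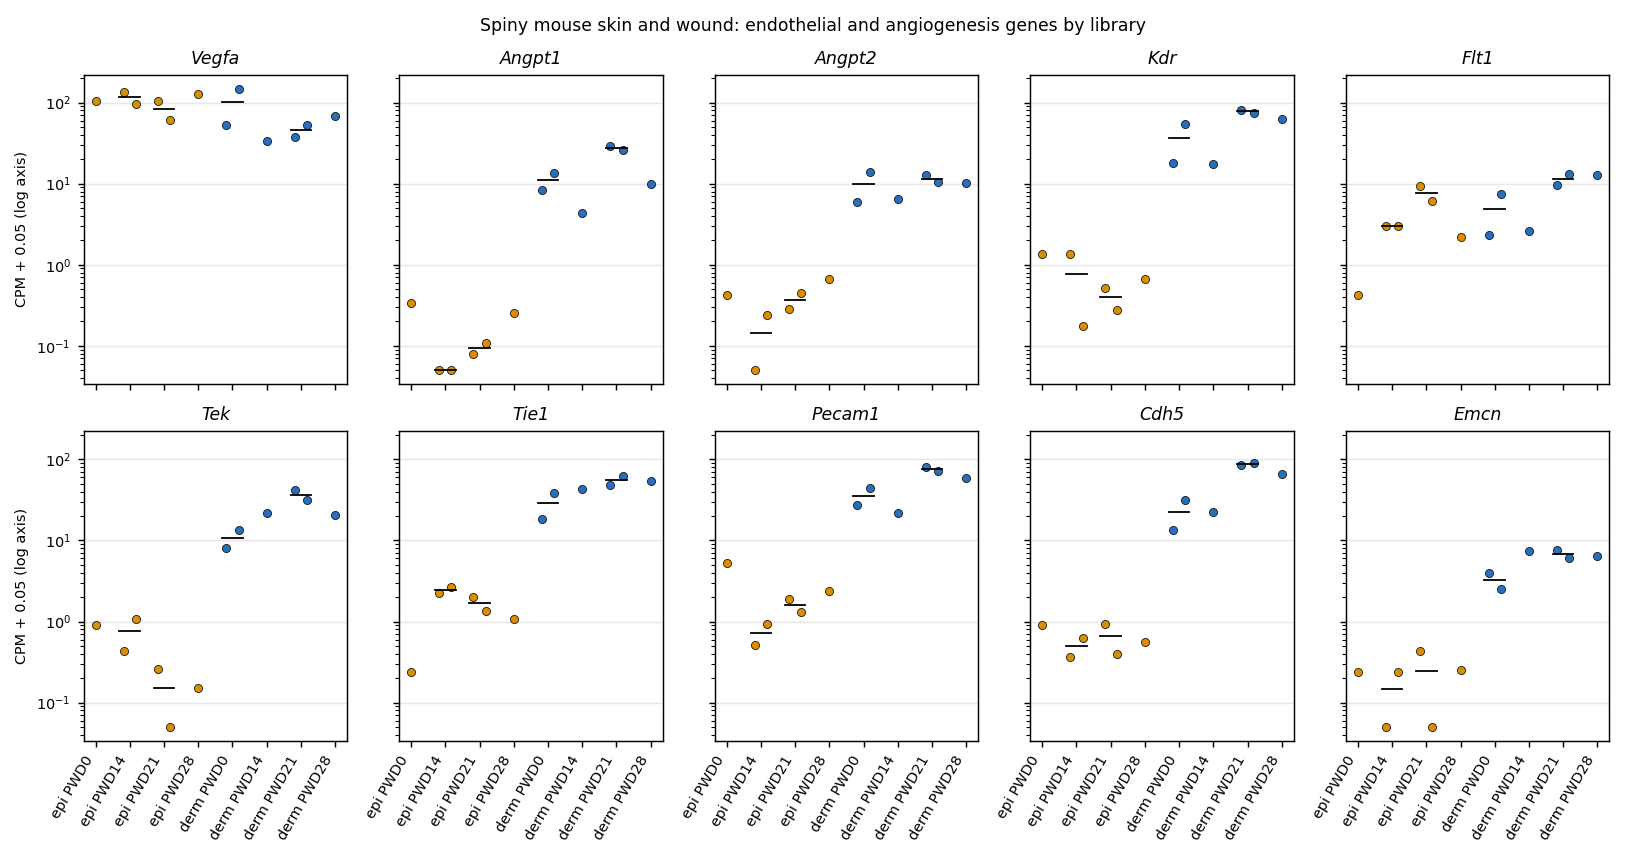
Level of each of the 10 genes in every spiny mouse library by layer and post-wound day, as CPM + 0.05 on a log axis; points are libraries and bars are means of groups of 2. In dermis Cdh5 is at 13.2 to 31.2 CPM on PWD0 and PWD14 and at 65.6 to 91.2 CPM on PWD21 and PWD28, while Vegfa has its highest value, 149 CPM, in a PWD0 library.

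Genes of the wider vascular lists were called in both directions in spiny mouse dermis, where 26.2% of all genes were called. Of 28 endothelial identity genes 8 were called, 5 higher at PWD21 (Vwf, Cd93, Eng, Ptprb and Sox18) and 3 lower (Tal1, Icam2 and Ecscr), with a median of 0.44 beside 0.03 for all genes. Vwf, the clotting factor carrier of endothelium, stood at 241 CPM at PWD21 and 40.4 CPM at PWD0. Of the 7 other VEGF ligands and receptors, Nrp1 and Nrp2 rose and Vegfb fell, Nrp2 to 280 CPM from 61.9 CPM. Apln and its receptor Aplnr rose from 1.92 to 28.7 CPM and from 2.38 to 24.7 CPM, beside Cxcr4, while Adm, adrenomedullin, fell. Among 10 pericyte and mural genes Pdgfrb, Abcc9 and Kcnj8 rose and Des and Ndufa4l2 fell. Of 7 lymphatic genes 3 fell: Prox1, Lyve1 and Mmrn1. The hypoxia-induced genes Egln3, Pfkfb3 and Slc2a1 fell and none rose. Of 12 fibroblast genes 4 rose, Fbn1, Lum, Pdgfra and Twist2, and none fell, and 6 of 8 skeletal muscle genes fell. The fibroblast genes summed to between 68181 and 100520 CPM at PWD0 and between 120298 and 152696 CPM at PWD21. Their part in the rise of the endothelial genes was not tested.

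In spiny mouse epidermis Cdh5 and Angpt1 were low at every day. Cdh5 was at 0.31 to 0.887 CPM in the 6 libraries, on 4 to 30 counts, and Angpt1 was at 0 to 3 counts. Pecam1 was at 0.465 to 5.19 CPM, highest at PWD0. The 28 further endothelial identity genes summed to 96.5 to 194 CPM, beside 581 to 1416 CPM in spiny mouse dermis. These sums include Nos3 and Sox7, called as higher in epidermis than in dermis at PWD21. The median log2 difference of the list on that day, dermis against epidermis, was 5.53. In the PWD21 epidermis libraries 20 to 25 of the 28 were above the floor of detection, so this median is no bound. Vegfa was at 104 CPM on PWD0, 135 and 96.7 CPM on PWD14, 104 and 60.2 CPM on PWD21 and 128 CPM on PWD28. Of the 10 members 4 were tested between PWD14 and PWD21, and 1 was called, Vegfa, with a log2 difference of 1.04 ± 0.27 (adjusted p = 0.00818, edgeR), in a contrast that called 46.6% of all genes. Its CPM values overlapped between the days. With library size as the only scale the difference was 0.49 (adjusted p = 0.128) and the median of all genes moved from -0.04 to -0.59, so the call depends on the scaling. It was also lost without PWD21 replicate 2 (adjusted p = 0.0714) and in the fit of all spiny mouse libraries (0.0997).

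Flt1 and Tie1 varied over the days of the epidermis. Flt1 had 4 counts or 0.378 CPM at PWD0, then 2.95 and 2.94 CPM at PWD14, 9.34 and 6.11 CPM at PWD21 and 2.16 CPM at PWD28. Tie1 had 2 counts at PWD0 and measured 2.17 and 2.62 CPM at PWD14, 1.98 and 1.31 CPM at PWD21 and 1.03 CPM at PWD28. A test for any difference among the days called 3 of the 7 members tested, Flt1 (adjusted p = 0.00186), Tie1 (0.0165) and Vegfa (0.0284, all edgeR), where 59.5% of all genes were called. PWD0 and PWD28 had 1 library each.

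Ratios within a library do not depend on the scaling between libraries. Counts of Tek for each count of Cdh5 were 0.181 and 0.156 in wound center dermis replicates 1 and 2, 0.291 in both margin libraries, 0.105 to 0.158 in wild-type replicates 3 to 5, and 0.224 and 0.302 in K14-Cre-Twist1 dermis. Emcn per Cdh5 was 0.301 and 0.33, 0.503 and 0.639, 0.23 to 0.301, and 0.457 and 0.584 in the same groups. Both ratios were thus higher in the margin and K14-Cre-Twist1 libraries than in every wild-type center library. Kdr and Angpt2 per Cdh5 were also higher at the margin, at 0.359 and 0.405 and at 0.401 and 0.33. The wild-type center libraries held 0.201 to 0.309 for Kdr and 0.121 to 0.25 for Angpt2. The K14-Cre-Twist1 libraries were not both above these ranges. In spiny mouse dermis Kdr per Cdh5 was 1.37 and 1.74 at PWD0 and 0.959 and 0.819 at PWD21, and Angpt2 per Cdh5 was 0.44 and 0.443 at PWD0 and 0.15 and 0.113 at PWD21. Pecam1, Tie1 and Flt1 per Cdh5 were likewise lower in both PWD21 libraries than in both PWD0 libraries, while Tek and Emcn per Cdh5 overlapped. Cdh5, the shared divisor, had the largest fitted rise of the members between these days. These ratios are descriptions and were not tested.

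**Figure D4:**
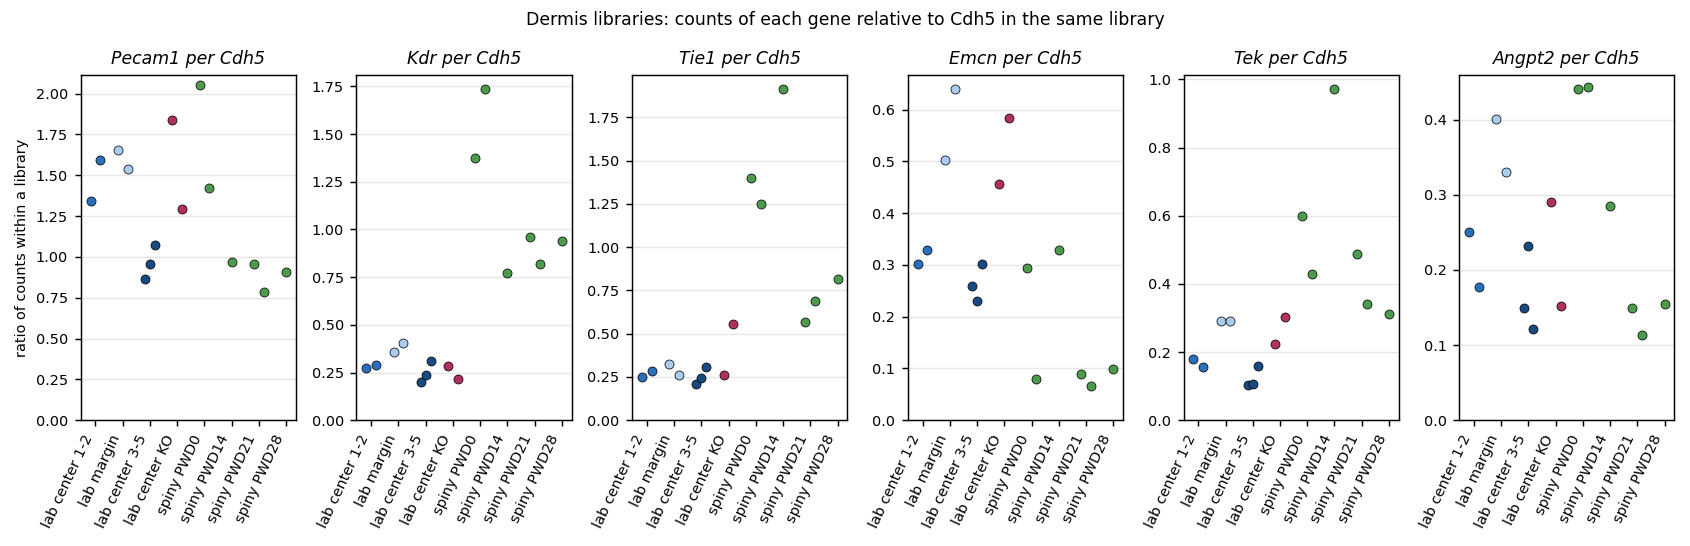
Counts of 6 genes divided by the counts of Cdh5 in the same dermis library, for lab mouse wound center (replicates 1 and 2, and 3 to 5), wound margin and K14-Cre-Twist1 wound center, and for spiny mouse dermis by day; each point is 1 library and each panel has its own axis from 0. Tek and Emcn per Cdh5 are higher in margin and K14-Cre-Twist1 libraries than in wild-type center libraries, and Angpt2 per Cdh5 is 0.44 in both PWD0 libraries of the spiny mouse and 0.113 to 0.15 at PWD21.

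Levels of different genes were compared per kilobase of exon, as RPKM computed from CPM and the merged exon length of the gene. In the 5 wild-type wound center dermis libraries the mean was 99.7 RPKM for Pecam1, 95.6 for Cdh5, 40.3 for Emcn, 21.3 for Tie1, 19.7 for Angpt2, 16.3 for Kdr, 10.7 for Tek, 7.01 for Vegfa, 4.92 for Angpt1 and 4.58 for Flt1. The ranges over libraries overlapped between each gene and the next in that order, except between Cdh5 and Emcn. The order was not the same in both sets of libraries. Pecam1 was at 83.0 and Cdh5 at 59.0 RPKM in replicates 1 and 2, and at 111 and 120.0 in replicates 3 to 5. Angpt1 was at 3.17 and Flt1 at 1.84 RPKM in replicates 1 and 2, and at 6.08 and 6.40 in replicates 3 to 5, and Angpt2 and Tie1 changed places as well. The 3 endothelial surface genes led in both sets. In wound center epidermis Vegfa led with 34.8 RPKM and the next gene, Emcn, had 1.94.

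The pattern of Cdh5 over the 9 lab mouse dermis libraries was most like that of Col4a1 and Col4a2, the chains of basement membrane collagen IV, and Col18a1, with Pearson r of 0.990, 0.976 and 0.981 on log2(CPM + 1), followed by Dync1h1, Tut1, Bgn, Zyx, Med15, Cap1 and Bmp1 with 0.962 to 0.973. The endothelial members came lower, with 0.863 for Kdr, 0.856 for Flt1, 0.813 for Pecam1 and 0.795 for Tie1. Emcn had 0.523, Angpt2 0.506 and Tek 0.36, while Angpt1 had 0.054 and Vegfa -0.16. Among 11698 genes ranked, the first 100 held 1 of 36 endothelial genes. The points fall into the 2 sets of libraries described above, which differ in Cdh5, and the part of that split in the order was not tested. Over the 6 spiny mouse dermis libraries the r was 0.829 for Col4a1, 0.845 for Col4a2 and -0.163 for Col18a1, and 0.917 to 0.930 for Kdr, Flt1 and Pecam1. For the other members it was 0.872 for Tie1, 0.856 for Tek, 0.765 for Angpt1, 0.705 for Angpt2, 0.481 for Emcn and -0.073 for Vegfa.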

How the data were processed

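Gene-level read counts were deposited by the authors, 1 table per library, with 24500 gene symbols and 5 summary lines that were left out of library sizes. Per the study's methods and the submitters' notes, 75-base reads were aligned with STAR (2.6.1d in the methods, 2.4.1d in the notes) to mm10, spiny mouse reads included, and counted with htseq-count 0.6.0 on RefSeq genes. The strand option was not given in the sources used here. Lab mouse layers were separated by hand and spiny mouse layers with trypsin. All 25 tables were used, and 0 columns of other samples were set aside.

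From the counts, CPM was computed over all gene rows, and RPKM from CPM and merged GENCODE M21 exons. Each comparison was fitted to the libraries of its groups with edgeR 4.0.16 (quasi-likelihood, TMM, filterByExpr with a minimum count of 10) and limma 3.58.1 in R 4.3.3. An adjusted p under 0.05 over all genes was called. The scripts were tested on simulated data in which 200 genes were changed by a log2 of 2, and 33.5% to 92.0% of them were recovered, depending on the comparison. Alternatives included DESeq2 1.42.0, other scalings, other filters and leaving out each library. The members, the gene lists and the rule that names list genes (up to 4 of the lowest adjusted p in each list) were chosen with earlier results of these data known. Where the text gives a count of 5 or fewer called list genes they are named, chosen after their values were seen. Levels of genes were compared with that of Cdh5 by Pearson r on log2(CPM + 1) for genes of at least 5 CPM, and the first 10 were named. Counts give intervals and floors (3 counts) for counting error only, and p-values cover the spread between libraries.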

Additional observations from a re-analysis of the deposited data

Results flagged for a closer look

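The difference between wound center and wound margin differed between epidermis and dermis of the lab mouse for 4 of the 10 genes, by the interaction term of the edgeR fit, adjusted over all genes. On the log2 scale the difference was larger in epidermis by 7.46 for Tie1, 6.64 for Kdr, 7.95 for Angpt2 and 3.58 for Emcn. In margin epidermis Tie1, Kdr and Angpt2 had 0 to 4 counts, so these fitted values are no bounds, and with at least 10 counts required in every library Emcn was the 1 member called of 5 tested (3.36, adjusted p = 0.0247, edgeR). Tie1 and Kdr were called with any 1 of the 8 libraries left out, and Angpt2 and Emcn were not. In wild-type wound center dermis, the 1 group of 5 libraries, none of the 10 genes had a library beyond Dixon's 95% limit of 0.71, which chance would pass in about 1 of 20 groups.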

How the results depend on the processing

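No paired analysis was possible because each library has its own number in the labels, which do not show which libraries share an animal. By the study's methods the lab mouse margin was what remained of a wound after the center was punched out, and the layers were then separated. Regions and layers may therefore come from the same animals, and the fits treat all libraries as independent. Of the values recomputed under other settings, 623 kept their direction and side of the threshold, 30 gained a call, 4 lost one and 4 turned. With 1 library left out, 327 kept both, 26 gained a call, 16 lost one and 13 turned. The cause was not tested.

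Members called between epidermis center and margin numbered 0, but 1 with no low-count filter, 5 with the likelihood ratio test, 6 with DESeq2, 6 with all libraries in one fit and 0 to 9 with 1 library left out. For K14-Cre-Twist1 there were 0, 1 with DESeq2 and 0 to 3 with 1 library left out. In spiny mouse epidermis PWD14 against PWD21 there was 1, 2 with at least 10 counts in every library, 2 with the likelihood ratio test and 0 to 2 with 1 library left out. In spiny mouse dermis there were 4, and 1 to 7 with 1 library left out. With at least 10 counts in every library fewer members could be tested, and 5 of 10 stayed called between margin layers, 3 of 9 between spiny mouse layers, 1 of 4 for the region difference between layers and 1 of 3 among days of spiny mouse epidermis, where the likelihood ratio test called 5. The region difference between layers had 2 to 7 with 1 library left out.

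With all 5 wild-type libraries, dermis center against margin turned to 0.28 for Emcn, 0.19 for Tek, 1.15 for Flt1 and 0.31 for Angpt2 (log2). With 1 library left out the log2 differences ran from -0.10 to 3.01 for Flt1 in epidermis, from -0.54 to 0.020 for Tek, -0.041 to 0.22 for Kdr, -0.97 to 0.23 for Flt1 and -0.69 to 0.14 for Angpt2 in dermis center against margin, from -0.34 to 0.38 for Pecam1, -0.49 to 0.39 for Tie1, -0.57 to 0.78 for Vegfa and -0.95 to 0.21 for Angpt2 in K14-Cre-Twist1, and from -0.23 to 0.75 for Angpt2 in spiny mouse dermis.

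Over all genes, epidermis center against margin had 176 calls, 1511 by DESeq2, 1533 by the likelihood ratio test, 478 in the fit of all libraries and 0 by edgeR's older quasi-likelihood estimate. Dermis center against margin had 125, and 738, 886, 3 and 54 in that order, with 323 for all 5 wild-type libraries. K14-Cre-Twist1 had 8, and 787, 214, 229 and 2 in that order, with 190 for all 5 wild-type libraries and 0 with at least 10 counts in every library. The region difference between layers had 540, 1125 by DESeq2 and 1485 by the likelihood ratio test. Groups of 2, and spiny mouse depths down to 5669760 counts, limit what these tests can call.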
